A study of Mus musculus with 33 samples.

Results

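The Hox cluster genes were described here as 38 protein-coding genes in 4 clusters, out of 22367 protein-coding genes of the GENCODE vM1 annotation of mm9. Members were chosen by name and position, with no measured value in the rule: 10 genes of the a cluster, 10 of the b cluster, 9 of the c cluster and 9 of the d cluster. A member was said to carry H3K4me3 when a deposited H3K4me3 domain overlapped the 2 kb on either side of its gene start, and to carry H3K27me3 or H3K9me3 when a domain of that mark overlapped the 5 kb on either side. A promoter with H3K4me3 and H3K27me3 was called bivalent, one with H3K27me3 alone repressive, one with H3K4me3 alone active, and one with neither no mark.

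The study compared chromatin of wild type (WT) E14 mouse embryonic stem cells (mESC) and of a Uhrf1 knockout (Uhrf1 KO) E14 line by ChIP-seq, undifferentiated and as embryoid bodies (EB) at week 1, 2 and 3. Uhrf1 binds hemi-methylated DNA and is needed for the upkeep of DNA methylation, and the comparison asked how its absence bears on promoters that hold active and repressive histone marks together. H3K4me3 and H3K27me3 were measured in both genotypes at all 4 stages, H3K9me3, Oct4, Sox2 and Nanog in mESC of both genotypes, and Uhrf1 in WT mESC. Of 33 samples, 25 had a list of domains, summits or windows, and the 8 inputs had none used here. Undifferentiated cells were grown with leukemia inhibitory factor on plates coated with gelatin or with mouse embryonic fibroblasts, and the EBs were formed in hanging drops. The KO cells were a single line, and each group held 1 library, so every value below describes 1 list, no test between genotypes was possible and no difference has a replicate check. The lists hold no read totals, so the depth behind them is unknown.

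Hox genes encode homeodomain transcription factors that give cells of the embryo their identity along the head to tail axis. They lie in clusters in which the order of the genes follows the order of their expression, with low paralogue numbers active early and anteriorly and high numbers late and posteriorly. In stem cells the clusters are a classic target of Polycomb: PRC2 writes H3K27me3 over the silent genes, while trithorax-type methyltransferases such as the Setd1a and Mll complexes write H3K4me3 at their CpG-rich starts. Promoters with both marks are held to be poised for later activation.

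Between the outermost ends of these members, the a cluster spanned in mm9 98.5 kb of chromosome 6 (52112350 to 52210874), the b cluster 173.9 kb of chromosome 11 (96055630 to 96229570), the c cluster 115.7 kb of chromosome 15 (102751534 to 102867274) and the d cluster 96.8 kb of chromosome 2 (74506367 to 74603200). Starts of members were rich in CpG. The 4 kb around a member's start held a median of 139 CG dinucleotides (range 31 at Hoxc4 to 259 at Hoxd8), against a median of 85 over all coding genes. The number did not follow the mark classes described below: the median was 142 at the 17 members bivalent in both genotypes of mESC, 138.5 at the 12 that were bivalent in WT and repressive in KO mESC, and 143 at the 8 that were repressive in both. Promoters of 22 members were in the RefSeq table (GRCm38.p6), and 3 are shown because they stand for those 3 classes: Hoxb4, bivalent in all lists, Hoxa9, bivalent in WT mESC and repressive in KO mESC, and Hoxd10, repressive in both. Each line gives the 250 bases before the start, 5′ to 3′ on the gene's strand, with CG in capitals.
Hoxb4 (chr11:96318017-96318266, plus strand): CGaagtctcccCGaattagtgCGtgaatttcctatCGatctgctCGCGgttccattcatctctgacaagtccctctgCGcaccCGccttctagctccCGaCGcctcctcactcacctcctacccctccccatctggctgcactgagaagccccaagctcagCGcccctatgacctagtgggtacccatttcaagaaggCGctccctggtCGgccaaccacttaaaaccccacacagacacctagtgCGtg
Hoxa9 (chr6:52227371-52227620, minus strand): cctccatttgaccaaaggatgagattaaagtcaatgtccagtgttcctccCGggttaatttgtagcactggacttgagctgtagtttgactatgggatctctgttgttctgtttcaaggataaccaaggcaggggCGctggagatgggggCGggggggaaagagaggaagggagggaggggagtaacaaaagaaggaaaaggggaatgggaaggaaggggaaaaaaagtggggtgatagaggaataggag
Hoxd10 (chr2:74691641-74691890, plus strand): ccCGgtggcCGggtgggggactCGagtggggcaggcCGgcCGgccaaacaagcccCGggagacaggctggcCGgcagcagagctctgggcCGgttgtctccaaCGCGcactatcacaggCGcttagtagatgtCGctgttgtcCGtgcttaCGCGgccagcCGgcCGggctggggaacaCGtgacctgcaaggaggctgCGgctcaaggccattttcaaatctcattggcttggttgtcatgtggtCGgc
These held 14, 3 and 20 CG dinucleotides. Over the 24 promoters of members in the table the median was 12.5, and over all 32851 promoters it was 6. In these 3 promoters CpG number and mark class were thus not ordered alike, since Hoxd10 had more CG than Hoxb4 and carried no H3K4me3 in mESC of either genotype. The mark classes were called at GENCODE vM1 starts, which can differ from the RefSeq starts of these promoters. In the 4 kb around those GENCODE starts Hoxb4 held 100 CG, Hoxa9 157 and Hoxd10 147. Hoxa9, with the fewest CG of the 3 promoters shown, thus had the most around its GENCODE start.

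H3K27me3 was the mark the clusters held throughout. All 38 members carried it in WT and KO mESC and in WT and KO EBs at all 3 weeks, 8 lists in all, as did 538 of all coding genes (2.41%). This included the thin list of KO mESC, which held 722 domains against 8161 in WT mESC. Of the coding genes with H3K27me3 in WT mESC, 15.5% carried it in KO mESC. At week 1, 2 and 3 the share was 72.3%, 48.8% and 49.9%. All 38 members carried the mark in WT and in KO at each of the 4 stages.

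A single H3K27me3 domain lay over the whole of each cluster in each of the 8 lists, and so the 38 calls came from 4 domains per list and are not separate observations. Domain lengths over the b cluster were close to each other, from 582.8 to 682.2 kb, and reached over Skap1 on one side and Ttll6 and Calcoco2 on the other. Over the c cluster they ran from 455.4 to 514.8 kb. Left edges of the b domain lay within 9 kb of each other across the lists, and right edges within 99.25 kb. For the c domain these spreads were 52 kb and 18 kb. Edges of the a and d domains spread further, left edges by 538.5 and 361.8 kb and right edges by 226.4 and 822.6 kb. The a domain ran from 201.6 to 948 kb, and the d domain from 144 kb in KO EBs at week 1 to 1328 kb in WT EBs at week 2. At week 1 the a and d domains were shortest in both genotypes.

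**Figure D1:**
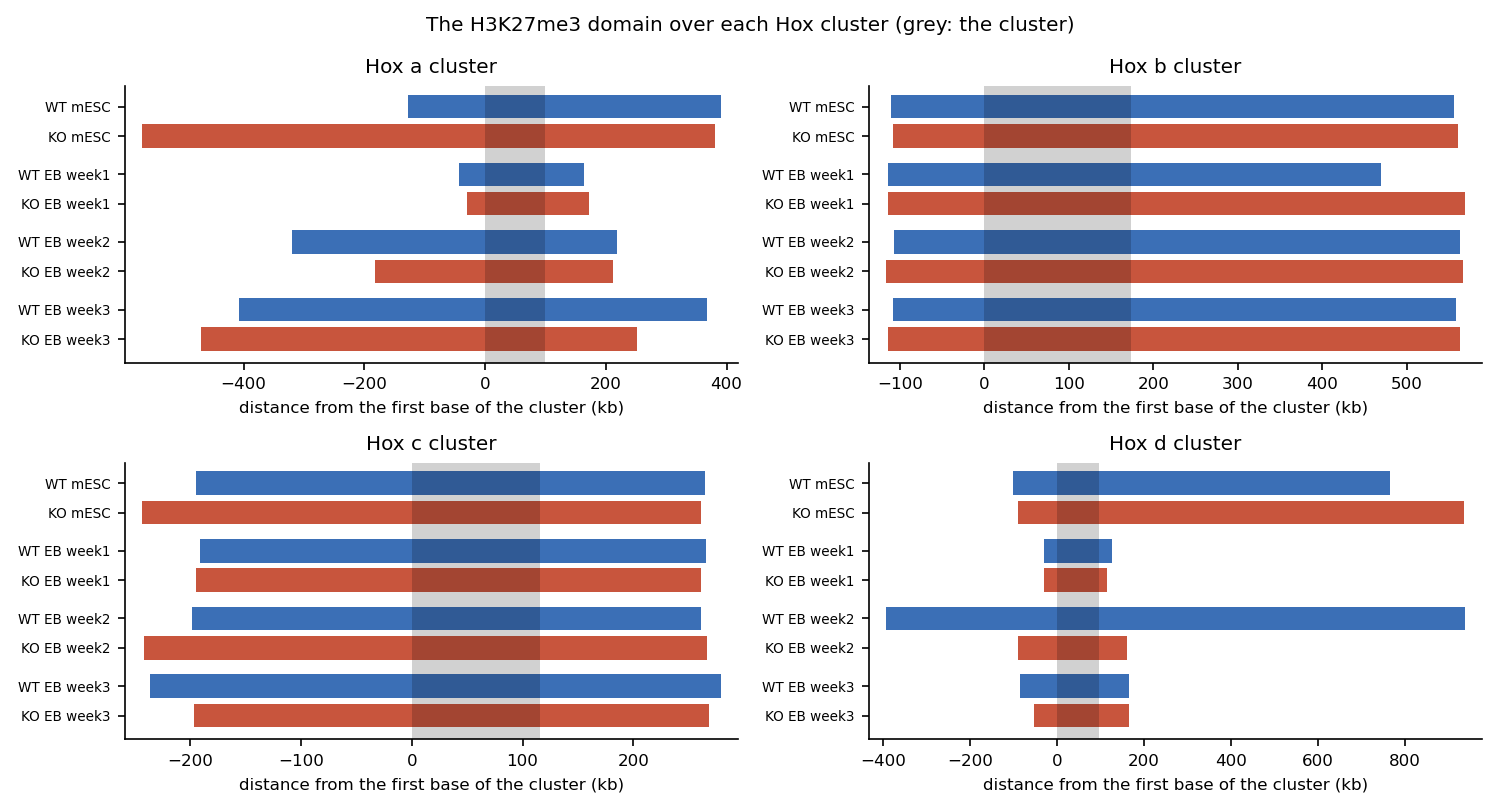
Extent of the H3K27me3 domain over each Hox cluster (grey band) in the 8 lists, WT in blue and Uhrf1 KO in red, as distance in kb from the first base of the cluster. The limits of the b and c domains varied less across the lists, with the b domain between 582.8 and 682.2 kb long, while the a domain varied from 201.6 to 948 kb and the d domain from 144 to 1328 kb.

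In KO mESC the domains over the clusters were of unequal strength. The mean read count per bin, which the caller gives for each domain, was 9.39 over the b cluster and 8.08 over the c cluster, ranks 12 and 15 of 722 in that list. Over the a and d clusters it was 1.48 and 1.61, ranks 241 and 221, above the list's median of 0.914. In WT mESC the same 4 domains had 14 (a), 20.7 (b), 20.5 (c) and 9.53 (d) reads per bin, and the weakest domain of the whole WT list had 3.04. The a and d domains of KO mESC were thus below every WT domain, although by the caller's score, which grows with length, they ranked 8 and 6 of 722. Bins were 1800 bp in WT and 1500 bp in KO mESC, so the counts are not on 1 scale. When only KO domains with at least the lowest WT mean count were used, a choice made after seeing the data, 19 of 38 members, those of the b and c clusters, carried H3K27me3 in KO mESC.

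H3K4me3 at the Hox genes differed between the genotypes, by stage. In WT mESC 29 of 38 members carried it and in KO mESC 18. Of the 29, 17 carried it in KO (58.6%), against 88.0% of the 14130 coding genes with H3K4me3 in WT mESC. Hox promoters are bivalent, so a closer background is the set of coding genes that were bivalent in WT mESC, of which 75.1% had H3K4me3 in KO. Since H3K27me3 was present at each member, the same 29 and 17 members were bivalent in WT and in both. Over all coding genes the bivalent class was kept at 14.6% of the 4100 genes that had it in WT mESC. The other 12 were repressive in KO mESC, and no member was active or without mark in any pair of lists. In KO mESC this rests on the weak H3K27me3 domains over the a and d clusters: when KO domains below the lowest WT mean count were dropped, a choice made after seeing the data, 13 members were bivalent, 5 active, 6 repressive and 14 without mark. Bulk chromatin cannot tell a start that holds both marks in 1 cell from a mixture of cells that hold either.

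The 12 members without H3K4me3 in KO mESC were Hoxa3, Hoxa7, Hoxa9, Hoxa10, Hoxb1, Hoxb9, Hoxc8, Hoxc9, Hoxc10, Hoxc11, Hoxd8 and Hoxd13. Those of the a cluster and those of the c cluster had neighbouring starts, and Hoxb1, Hoxb9, Hoxd8 and Hoxd13 stood singly. In the a cluster a WT domain of 28600 bp lay over Hoxa7, Hoxa9 and Hoxa10 and began 463 bp from the start of Hoxa3. Its mean count was 6.28 per bin, and no KO domain lay there, so the nearest one was 10653 bp from Hoxa7, 19888 bp from Hoxa9 and 29653 bp from Hoxa10. At the ends of the cluster, Hoxa2 lay in a domain in both genotypes (10400 bp and a mean count of 7.78 in WT, 13000 bp and 5.71 in KO), and Hoxa13 in neither, 10127 and 28327 bp from the nearest. Hoxa11 had no H3K4me3 in mESC either. Hoxa7, Hoxa9 and Hoxa10 are genes of the trunk and its posterior part, and Hoxa9 and Hoxa10 are also known for their part in blood progenitors.

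In the c cluster WT mESC had a domain of 88400 bp with a mean count of 7.2 that ran from Hoxc11 to beyond Hoxc4. KO mESC had a domain of 46800 bp there, with a mean count of 4.32, which began 1313 bp from the start of Hoxc6 and ran beyond Hoxc4. The starts of Hoxc8, Hoxc9, Hoxc10 and Hoxc11 lay 8948, 23131, 28327 and 15958 bp from the nearest KO domain. At the other end Hoxc13, known for its part in hair growth, and Hoxc12 lay in a domain in both genotypes, of 40300 bp in WT (mean count 11.2) and 29900 bp in KO (7.06). The gap in KO was thus internal to the cluster, with both ends still marked.

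By number of members the b cluster kept the most, 8 of 10. Its share of bases in KO H3K4me3 domains, 44.9%, was below that of the c cluster, 47.2%. A WT domain of 156000 bp with a mean count of 8.29 lay over the 9 members from Hoxb9 to Hoxb1. In KO mESC there were separate domains in its place: 1 of 45500 bp (mean count 3.88) over Hoxb3 to Hoxb8, 1 of 15600 bp (5.27) over Hoxb2, and 1 at chr11:96109001-96116800 (8.56) between Hoxb13 and Hoxb9, near no member start. Hoxb9 and Hoxb1, the genes at the 2 outer ends of that run, had none, with the nearest KO domain 7430 and 8866 bp away. Hoxb1, whose product patterns the hindbrain and which is among the earliest to answer retinoic acid, was the only b gene of paralogue group 1 to 8 not marked. Hoxb13, which lies apart from the rest on the 5′ side, carried H3K4me3 in both.

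The d cluster had the least H3K4me3 in mESC. In WT 3 of 9 members carried it: Hoxd13 and Hoxd1 at its ends and Hoxd8 within. In KO only Hoxd1 did, in a domain of 29900 bp (mean count 5.67) against 19500 bp (7.68) in WT. The nearest KO domain was 15067 bp from Hoxd13, a gene of digit and genital development, and 43529 bp from Hoxd8. The starts of Hoxd3, Hoxd4, Hoxd9, Hoxd10, Hoxd11 and Hoxd12 had no H3K4me3 in either genotype of mESC.

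Hoxa6 was the sole member marked in KO mESC and not in WT, and it turned on the distance limit. Its start lay 2446 bp from the nearest WT domain, just outside 2 kb, and 155 bp from a KO domain of 27300 bp (mean count 6.17) that also held Hoxa4 and Hoxa5. Hoxa3 was as close to the limit from the other side, 463 bp from a domain in WT and 2138 bp in KO. The annotated start of Hoxa3 lies upstream of Hoxa4, Hoxa5 and Hoxa6, and its span holds 4 starts of other members, so that its call belongs to the middle of the cluster and not to its anterior end. Hoxd9 was outside the limit in WT mESC at 2364 bp. Among values just inside it, the start of Hoxd12 lay 1786 bp from a domain in WT EBs at all 3 weeks and in KO EBs at week 3.

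By paralogue position, H3K4me3 in mESC was present in WT and KO at 6 and 4 of the 7 anterior members (groups 1 to 3), at 13 and 11 of the 15 central members (4 to 8) and at 10 and 3 of the 16 posterior members (9 to 13). Hoxa3, marked in WT and not in KO, was counted as anterior by its paralogue number, although its start lies in the middle of the a cluster. Of the 10 posterior members marked in WT, Hoxb13, Hoxc12 and Hoxc13 kept the mark. Since neighbours share domains, these counts rest on few domains: 13 pieces of domain lay in the clusters in WT mESC and 9 in KO mESC.

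**Figure D2:**
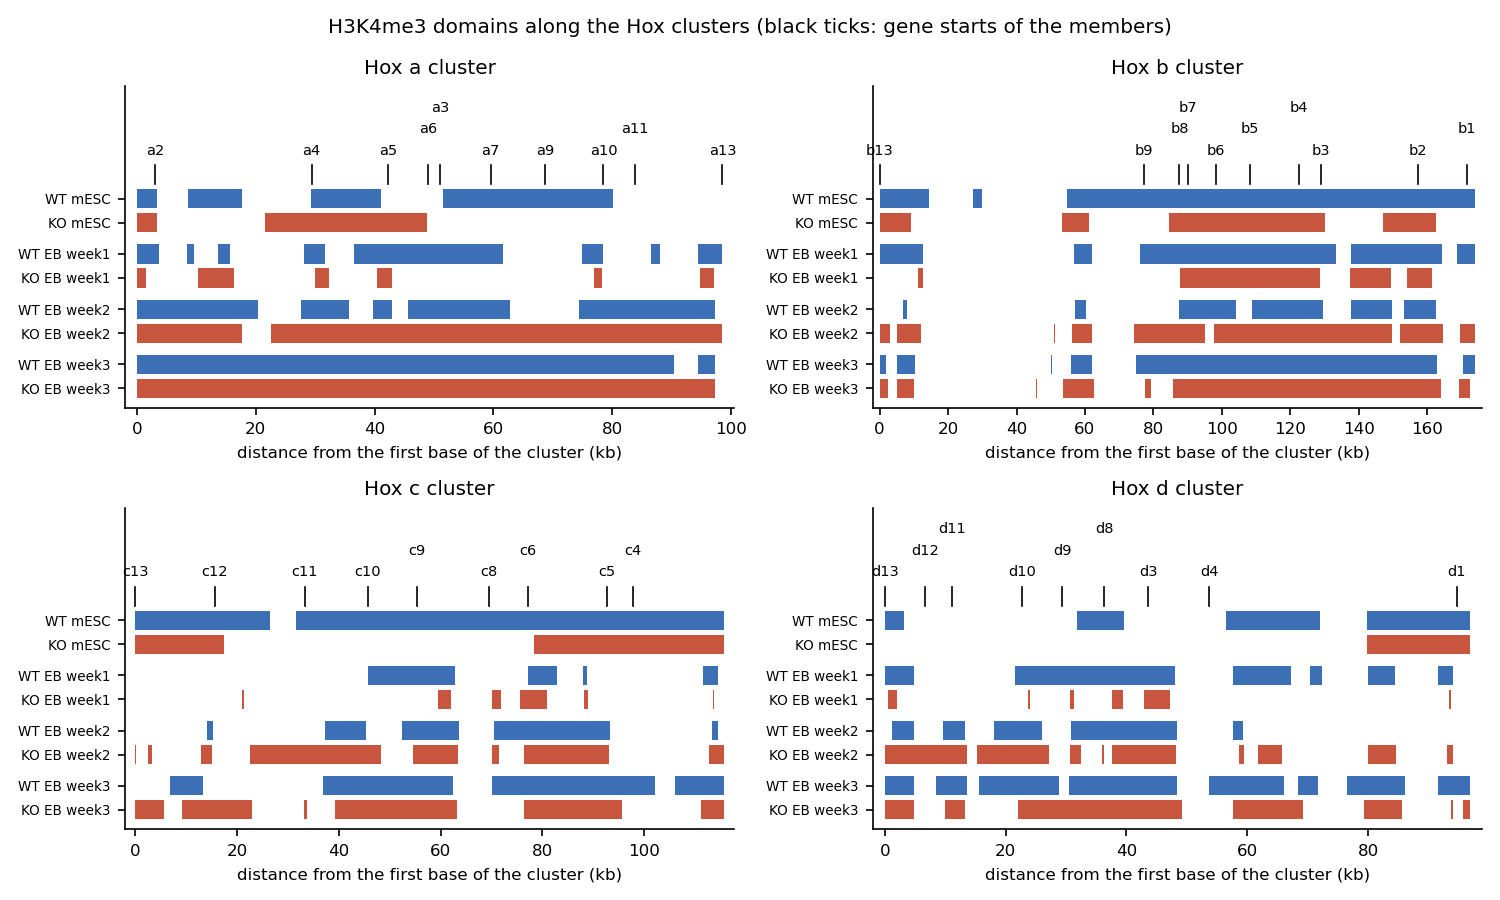
H3K4me3 domains (bars) along each Hox cluster in WT (blue) and Uhrf1 KO (red), with the stage on the vertical axis and the distance from the first base of the cluster in kb on the horizontal axis; labelled ticks mark gene starts. In KO mESC the c cluster was covered at its ends with a gap over Hoxc8 to Hoxc11, and the d cluster was covered only around Hoxd1.

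In EBs at week 1 the same direction was seen. H3K4me3 was at 28 members in WT and 21 in KO, and 19 of the 28 (67.9%) carried it in both, against 90.0% over all coding genes with the mark in WT and 75.0% over the coding genes bivalent in WT. The bivalent class of WT was present in KO at 50.9% of coding genes. The count of 19 fell to 10 (of 25 in WT) with only domains at or above the median score of their list, and to 8 (of 24) when 50% of the window had to be covered. H3K4me3 was in WT EBs alone at 9 members: Hoxa3, Hoxa6, Hoxa7, Hoxb1, Hoxb9, Hoxb13, Hoxc9, Hoxc10 and Hoxd12. Of these Hoxa3, Hoxa7, Hoxb1, Hoxb9, Hoxc9 and Hoxc10 were also in the list of mESC. Hoxc8 and Hoxc13 carried it in KO alone. The c cluster was the poorest at this stage, with 3 of 9 members marked in each genotype and 1 of them, Hoxc6, in both.

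At week 2 the difference ran the other way. H3K4me3 lay at 30 members in WT and at 36 in KO, where Hoxc4 and Hoxd4 alone lacked it, while 65.7% of all coding genes carried it in WT and 64.5% in KO. All 30 were marked in KO, against 94.7% of coding genes with the mark in WT, 89.8% of those bivalent in WT, and 54.5% that kept the bivalent class. The 6 members marked only in KO were Hoxa9, Hoxb1, Hoxb9, Hoxb13, Hoxc11 and Hoxd1. Hoxb1 lay in a KO domain of 5600 bp with a mean count of 4.71 and 9066 bp from the nearest WT domain. Hoxb9 lay in a KO domain of 20650 bp (mean count 5.62) and 10430 bp from WT H3K4me3. Hoxa9 lay in a KO domain of 86100 bp (6.81) and 5713 bp from WT H3K4me3. Hoxb1 and Hoxb9 thus carried the mark in WT and not in KO in mESC and at week 1, and in KO and not in WT at week 2.

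By week 3 both genotypes had H3K4me3 at nearly all members, 36 in WT and 35 in KO (36 and 37 when any annotated transcript start was used). In both, 33 of 36 were marked (91.7%), against 96.3% of coding genes, 93.6% of those bivalent in WT and 46.7% for the bivalent class. Hoxc4, Hoxc8 and Hoxd4 were marked in WT alone. Hoxc4 lay 2167 bp from a KO domain, just past the limit. Hoxc11 and Hoxc12 were marked in KO alone, Hoxc11 by a domain of a single bin of 400 bp. At all 4 stages of both genotypes 11 members were bivalent: Hoxa2, Hoxa4, Hoxa5, Hoxb2, Hoxb3, Hoxb4, Hoxb5, Hoxb6, Hoxb7, Hoxb8 and Hoxc6. Of all coding genes 153 were so (0.684%). None of the 11 is of the posterior groups or of the d cluster. Hoxd4 was at the other end, with H3K4me3 in WT EBs at week 3 only.

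**Figure D3:**
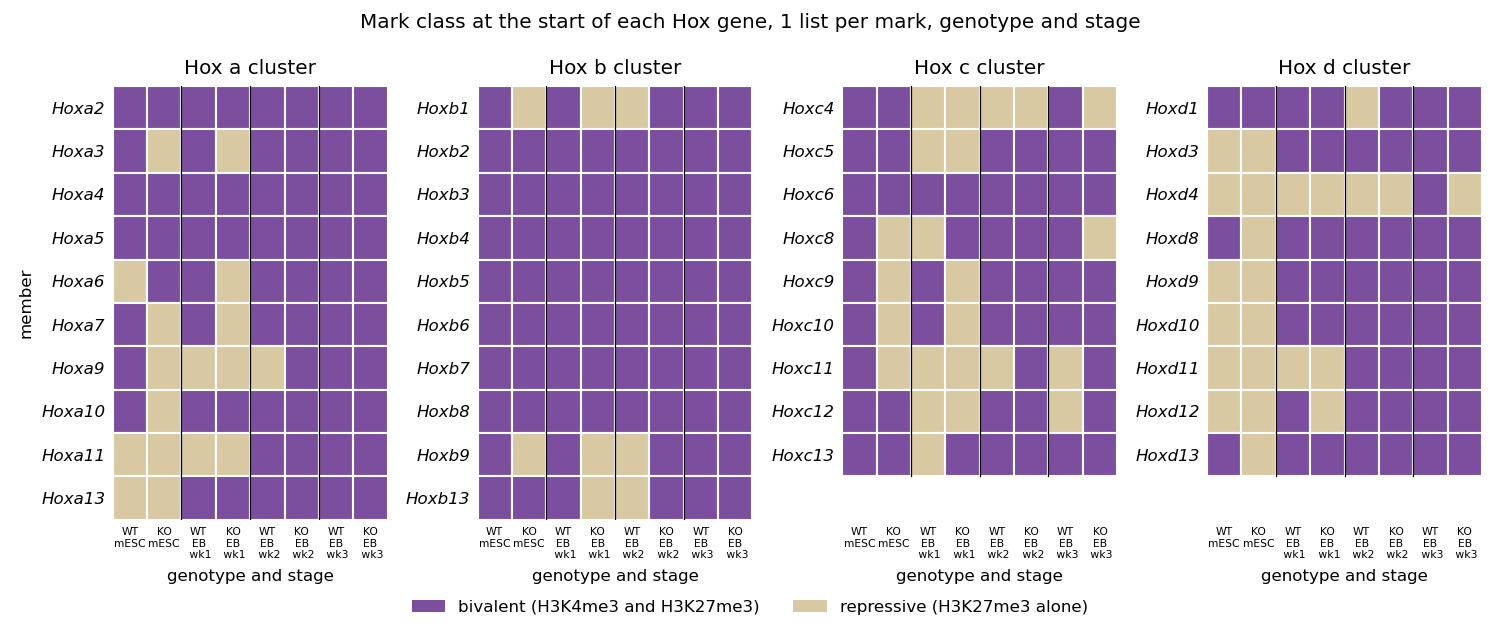
Mark class at the start of each of the 38 Hox genes (rows, by cluster) in WT and Uhrf1 KO at each stage (columns; wk, week): purple for bivalent and tan for repressive, with each cell resting on 1 list per mark. WT mESC had 29 bivalent members and KO mESC 18, the order was turned at week 2 with 30 in WT and 36 in KO, and 7 of the 10 b cluster genes were bivalent throughout.

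The length of cluster under H3K4me3 followed the same course without any use of gene starts. In mESC 70.7% of the bases of the 4 clusters lay in H3K4me3 domains in WT and 37.2% in KO, and the share was lower in KO in each cluster: 53.5% and 31.1% (a), 78.3% and 44.9% (b), 95.5% and 47.2% (c), and 45.0% and 17.6% (d). At week 1 it was 47.0% in WT and 20.1% in KO, again lower in each cluster. At week 2 it was 44.0% in WT and 63.1% in KO and higher in KO in each cluster, with 72.7% and 95.0% in the a cluster, 36.1% and 60.8% in the b cluster, 38.4% and 50.7% in the c cluster, and 35.5% and 49.8% in the d cluster. At week 3 it was 70.9% and 65.8%, and of the 4 clusters the a cluster alone had more in KO, 98.7% against 94.6%. Over the whole genome H3K4me3 domains covered 8.14% in WT and 7.10% in KO mESC, 4.03% and 2.76% at week 1, 7.75% and 5.82% at week 2, and 6.10% and 6.24% at week 3. The clusters had more in KO at week 2 while the genome had less. From mESC to EBs at week 3 the a cluster went from 4 pieces to 2 in WT, the longest of 90.5 kb at week 3, and from 2 pieces to 1 of 97.3 kb in KO. The c cluster had its highest share in WT mESC and its lowest at week 1, 22.8% in WT and 9.37% in KO.

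**Figure D4:**
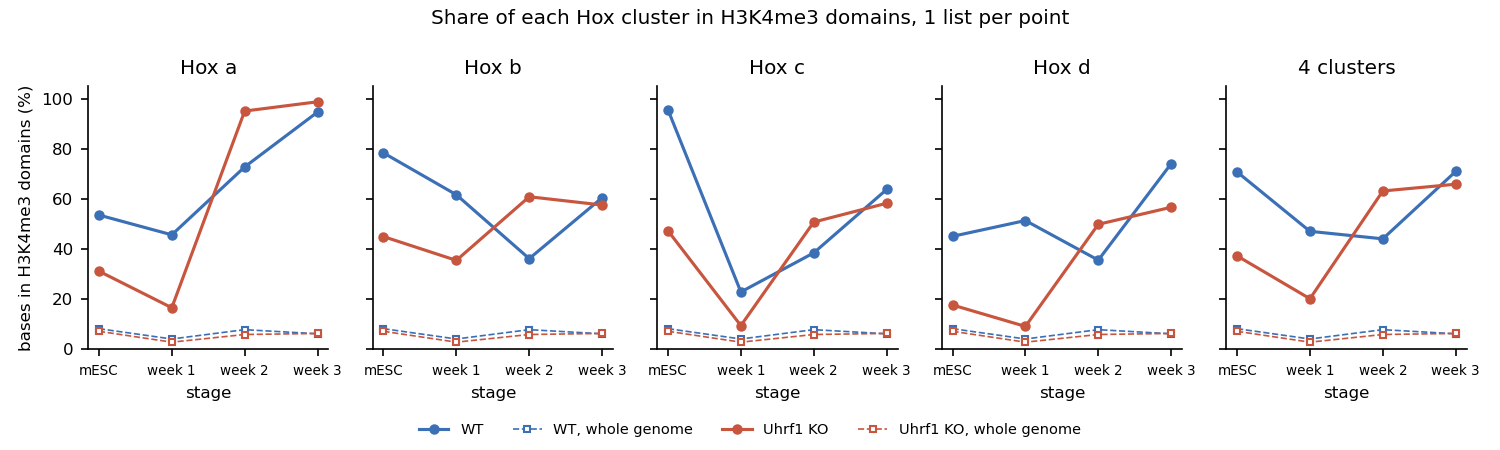
Percent of the bases of each Hox cluster, and of the 4 together, in H3K4me3 domains by stage in WT (blue) and Uhrf1 KO (red), 1 list per point; open squares with broken lines give the whole genome. KO lay below WT in mESC and at week 1 and above it at week 2 in all 4 clusters, and over the 4 together the values were 70.7% and 37.2% in mESC and 44.0% and 63.1% at week 2.

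H3K9me3, a mark of heterochromatin that Uhrf1 reads, was measured in mESC only. In WT 36 of 38 members lay in or near an H3K9me3 domain, Hoxd3 and Hoxd4 being the exceptions, and in KO 21. Over all coding genes the share went the other way, 29.7% in WT and 40.1% in KO. Both lists held 19 of the 36 (52.8%), against 74.9% of coding genes with H3K9me3 in WT. The split was by cluster. In the a cluster 10 members carried it in WT and 1, Hoxa13, in KO. In the c cluster 9 carried it in WT and 1, Hoxc13, in KO. All 10 members of the b cluster carried it in both, and the d cluster went from 7 members to all 9. The share of bases in H3K9me3 domains was 100% and 5.56% for the a cluster, 100% and 9.04% for the c cluster, 100% in both for the b cluster, and 62.8% and 100% for the d cluster.

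Each of these calls rested on 1 or a pair of long domains per cluster. In WT the domain over the a cluster was 277.2 kb with a mean count of 14, and that over the c cluster 187.2 kb with 14.6, both under the list's median of 15. The WT domain over the b cluster was 624.6 kb with a mean count of 17 and had the same left edge, 95945401, as the WT H3K27me3 domain there. In KO the b cluster lay in a domain of 26415 kb that held 470 coding gene starts and was the longest of its list. Without KO domains longer than the longest WT domain, a choice made after seeing the data, 9 of 36 members carried H3K9me3 in both genotypes. All 29 members with H3K4me3 in WT mESC carried the 3 marks together, as did 7.22% of coding genes, and in KO mESC 10 did, 8 of them in the b cluster, against 2.03%. Of the 12 members without H3K4me3 in KO, 8 also had no H3K9me3 there, 4 in the a cluster and 4 in the c cluster, and of the 17 that kept H3K4me3, 7 had no H3K9me3, from the same clusters.

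Oct4, Sox2 and Nanog, the core factors of pluripotency, were placed in the clusters through the summits of their peaks. In WT mESC 30 Oct4 summits lay in the 4 clusters, 17 of them in the b cluster, 5 each in the c and d clusters and 3 in the a cluster. This was 61.9 summits per Mb, against 4.86 per Mb of genome. No Oct4 summit of KO mESC lay in the clusters, but that list held 576 summits against 12898 in WT, and over all WT Oct4 sites 1.89% had a KO Oct4 summit within 100 bp. Sox2 had 23 summits in WT and 46 in KO, with 13 and 21 in the b cluster, and its lists held 5190 and 20755 summits. Nanog had 0 and 2, from lists of 2390 and 10632.

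The 6 highest WT Oct4 sites of the clusters, by reads at the summit, reached 46 to 62 against a median of 37 over the list, and the remaining 24 were below that median. They lay beside Hoxb1, Hoxb6, Hoxb4 and Hoxb13 and at 2 places in the 5′ part of the d cluster. Of the 6, the 3 with the highest Oct4 and 1 more with a KO Sox2 summit at the same base are shown. Each gives the summit and 50 bases on either side in mm9, plus strand, with ATGCTAAT (an octamer-like word that POU factors bind) and ACAAAG or ACAATG (Sox-like words) on either strand in capitals. The sites not shown, nearest Hoxd11 (51 reads) and Hoxb13 (46 reads), held none of these words.
Hoxb1 site (chr11:96226841-96226941): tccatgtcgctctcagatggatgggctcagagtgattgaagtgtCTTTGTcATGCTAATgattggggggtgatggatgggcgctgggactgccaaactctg
Hoxb6 site (chr11:96152929-96153029): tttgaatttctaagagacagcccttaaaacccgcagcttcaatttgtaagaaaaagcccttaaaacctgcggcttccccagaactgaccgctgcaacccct
Hoxd12 site (chr2:74510723-74510823): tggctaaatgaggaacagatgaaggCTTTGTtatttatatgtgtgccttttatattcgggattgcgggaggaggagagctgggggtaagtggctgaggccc
Hoxb4 site (chr11:96173100-96173200): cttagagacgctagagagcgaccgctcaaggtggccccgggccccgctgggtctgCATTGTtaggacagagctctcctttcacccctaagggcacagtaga
The Hoxb1 site, with 62 reads, lay 175 bp upstream of the Hoxb1 start and outside any annotated transcript, and its octamer-like word stood next to a Sox-like word. WT Sox2 had a summit of 26 reads 25 bp away and KO Sox2 one of 28 reads 7 bp away. The Hoxb6 site, 55 reads, lay 811 bp upstream of Hoxb6 in an intron of the noncoding gene 0610040B09Rik, held none of the words, and had a KO Sox2 summit of 20 reads 82 bp away. The Hoxd12 site, 52 reads, lay 2213 bp upstream of Hoxd12 between genes, with KO Sox2 (25 reads) 6 bp and KO Nanog (14 reads) 23 bp away and no WT Sox2 within 100 bp. The Hoxb4 site, 46 reads, lay 4848 bp upstream of Hoxb4 between genes, with WT Sox2 (36 reads) 12 bp and KO Sox2 (35 reads) 0 bp away.

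Over the whole list, 12697 WT Oct4 sites lay on chromosomes of the reference, and ATGCTAAT stood within 50 bp of 5.95% of them, ATGCAAAT of 8.82%, ACAAAG of 13.7% and ACAATG of 7.88%, counted on both strands. Of the 30 sites in the clusters, 1, 1, 3 and 2 held these words, and 6 held any, against 32.3% of all sites. A match describes the letters only.

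Of the 30 WT Oct4 sites in the clusters, 13 (43.3%) had a KO Sox2 summit within 100 bp, close to the 46.0% over all WT Oct4 sites. With WT Sox2 the numbers were 8 of 30 (26.7%) and 24.2%. With KO Nanog they were 1 of 30 (3.33%), the Hoxd12 site, and 32.4%. Of the 23 WT Sox2 sites in the clusters, 7 (30.4%) had a KO Sox2 summit within 100 bp, against 64.6% of WT Sox2 sites in all, so the 46 KO summits were largely at other places within the clusters. Summits in the clusters were low, with a median of 15 reads for KO Sox2 and 16 for WT Sox2 against 18 and 22 over their lists; the part of height in the match was not tested. Uhrf1 itself had 1 of its 13644 windows of 10 kb in the clusters, chr2:74500001-74510000 over Hoxd13. It lay within 5 kb of 2 member starts, against 6.10% of coding genes that had a window so near. The nearest window was 442.4 kb from the a cluster, 950.4 kb from the b cluster and 522.7 kb from the c cluster.

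**Figure D5:**
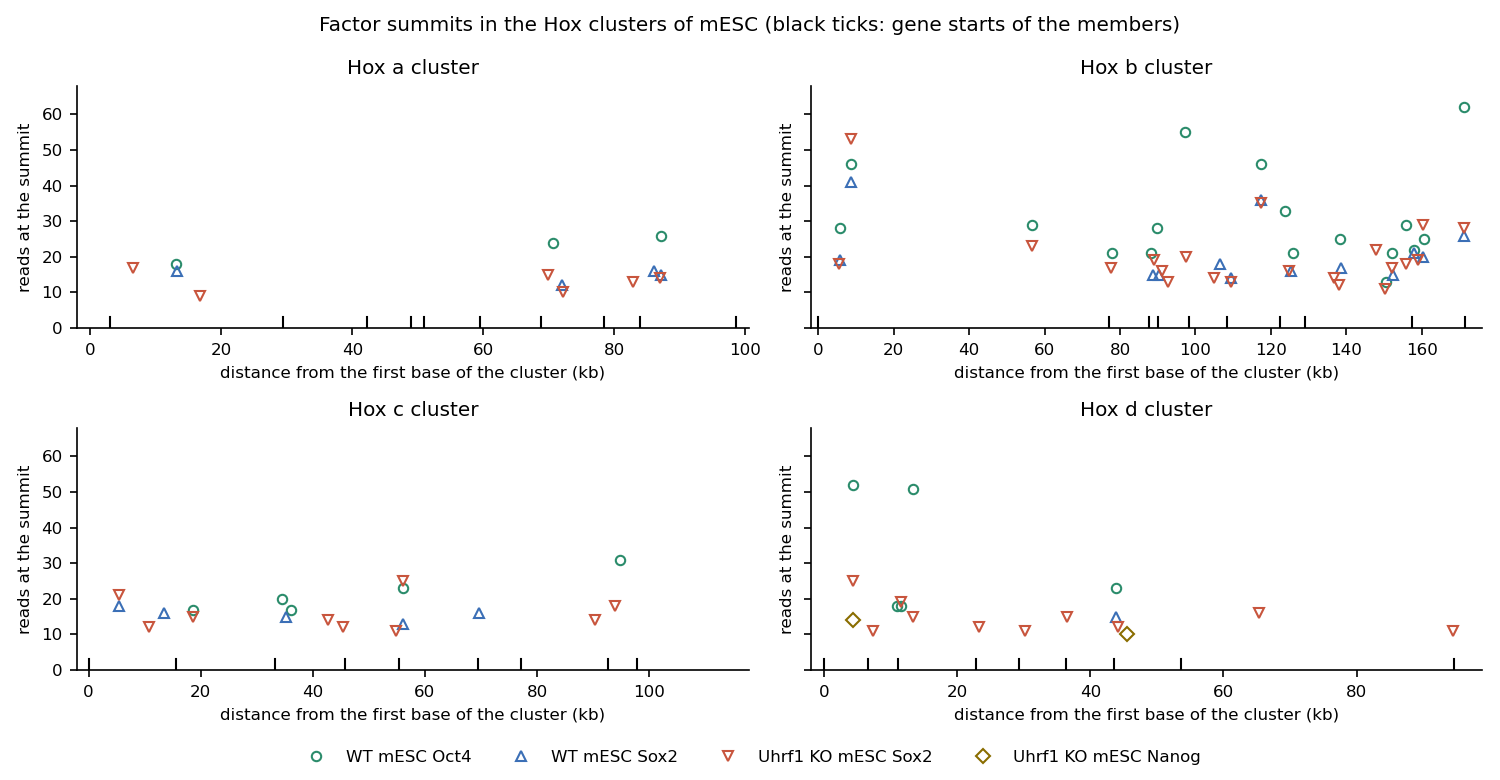
Reads at each factor summit (vertical axis) along the Hox clusters (distance from the first base in kb) in mESC: WT Oct4 circles, WT Sox2 up triangles, Uhrf1 KO Sox2 down triangles, Uhrf1 KO Nanog diamonds, with ticks at gene starts; Oct4 in KO and Nanog in WT had no summit here. The b cluster held 17 of the 30 WT Oct4 summits, the highest, at 62 reads, being beside Hoxb1.

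Genes that act with or on the Hox genes were read the same way. Of 9 upstream regulators (Cdx, retinoic acid pathway and hindbrain genes), 4 were bivalent in WT mESC and 1, Cdx2, in KO mESC, where Cdx4, Gbx2 and Egr2 had H3K4me3 alone. Of 9 TALE cofactors, the homeodomain partners of Hox proteins, 5 were bivalent in WT mESC (Pbx3, Meis1, Meis2, Meis3 and Pknox2) and none in KO, 8 of the 9 being active. Over all coding genes 14.6% kept the class, and nothing particular to these lists is read from their counts. Among 5 ParaHox and cluster-linked homeobox genes, all carried H3K27me3 in all 8 lists, except Gsx2 in KO mESC. This held for Evx1 and Evx2, which lie beside the a and d clusters, and equally for Gsx1 and Pdx1, which do not. Over all coding genes 2.41% carried it in all 8 lists. At week 1 all 5 had H3K4me3 in WT and none in KO. Of all coding genes bivalent in WT at week 1, 75.0% had H3K4me3 in KO. The count is of 5 genes in 1 list per genotype and was not tested. In KO mESC Evx2, Gsx1 and Pdx1 were repressive, as were 20 of the Hox members, and Evx1 was bivalent. Gsx2 was active there, as were Meis1 and Meis2, a class that no Hox member had with the full H3K27me3 list.

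Of 8 stem cell marker genes, 7 had H3K4me3 in mESC of both genotypes (not Esrrb). The same 7 had it in EBs of both genotypes at week 2 and week 3. At week 1 it was at 5 of the 8 in WT and at 2 in KO. The marker starts thus do not tell mESC from EBs of week 2 and week 3 in these lists, while those of week 1 had fewer marked. In WT mESC, Pou5f1, Sox2 and Klf4 were bivalent and Esrrb repressive. The start of Uhrf1 was active in all lists of both genotypes, so the lists do not check the knockout. Each of the 8 PRC2 and trithorax genes had H3K4me3 in all 8 lists. The part of list length, bin size and signal strength in the differences between genotypes was not tested. When WT and KO lists were cut to equal numbers of domains, 17 of 29 members kept H3K4me3 in mESC, and 30 became 29 at week 2. That cut kept the domains of highest score, which grows with length, and left bin size and signal strength as they were.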

How the data were processed

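Lists of domains, summits and windows were used as deposited by the authors on mm9, made per the study's methods with Bowtie2 2.1.0, RSEG for histone domains against input and MACS for factors. The deposited histone lists give a mean read count per bin (signal) and a domain score made by the authors' caller, and the deposited summit lists give reads at the summit (signal). The Uhrf1 list holds windows only. Gene starts came from GENCODE vM1 on NCBIM37, which is mm9 (no domain ran past a chromosome end by more than 1 bin). Marks were assigned by any overlap with 2 kb (H3K4me3) or 5 kb (H3K27me3, H3K9me3) around the gene start, and covered bases were summed over each cluster from the outermost gene ends. Percentages over 22367 coding genes leave out the mitochondrial genome. Overlap functions were tested on simulated data (10000 windows, each as counted base by base). Python 3.11.15 and matplotlib 3.10.9 were used.

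The members and gene lists were chosen with earlier results of these data known. All 38 members are accounted for. Those described singly are the members whose class differed between WT and KO mESC, those at the ends of the clusters and those near the distance limits. Further lists, of which 1 gene is not reported here, were upstream regulators, TALE cofactors, ParaHox and cluster-linked genes, cluster neighbours, PRC2 and trithorax genes and stem cell markers. Each group held 1 library, so no test was run. Alternatives changed the distance, the overlap, the score or number of domains, the gene start and the cluster ends. Read totals and inputs were not used here.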

Additional observations from a re-analysis of the deposited data

Results flagged for a closer look

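The KO minus WT difference in H3K4me3 took opposite signs at different stages; with 1 library per group this difference between stages was not tested. In percentage points of cluster covered by H3K4me3 domains, the 4 clusters together gave -33.5 in mESC and then, by week of EB culture, -26.9, 19.2 and -5.01. The a cluster gave -22.4, -29.1, 22.3 and 4.06 in that order. For the b cluster the values were -33.4, -26.2, 24.7 and -2.97. The c cluster gave -48.3, -13.4, 12.3 and -5.47, and the d cluster -27.4, -42.2, 14.2 and -17.3. In numbers of members with H3K4me3, the difference was -11 in mESC, then -7, 6 and -1 in EBs. The sign at week 3 depended on the gene start: with any annotated transcript start, 36 members in WT and 37 in KO carried H3K4me3.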

How the results depend on the processing

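Of 127 values recomputed, 115 stayed within 1.5 times the value reported, with the sign of each KO minus WT share unchanged, and 12 moved. The causes were not tested. The 115 include the H3K27me3 values that stayed, which had little room to move since 1 long domain lay over the whole of each cluster. For the same reason the bivalent counts repeated those of H3K4me3 value for value, except where weak KO H3K27me3 domains were dropped. They are thus not separate checks. The difference in members with H3K4me3 at week 3 turned from 36 in WT and 35 in KO to 36 and 37 with any annotated transcript start. At week 1, 10 members in place of 19 kept H3K4me3 (and the bivalent class) in KO with only domains at or above the median score, and 8 when 50% of the window had to be covered. When KO H3K27me3 domains weaker than the weakest of WT were dropped, 19 members kept H3K27me3 in mESC, and without KO H3K9me3 domains longer than any in WT, 9 kept H3K9me3; both were chosen after seeing the data. With only summits at or above the median height of their list, the clusters held 6 WT Oct4, 3 WT Sox2, 16 KO Sox2 and 1 KO Nanog summits, and with 10 kb added at both ends 4 WT Nanog and 7 KO Nanog summits. No paired analysis was possible because each group held 1 library and no test was run. Depth is unknown, so a mark missing from a list was not called there, which does not show that it was absent.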

Other observations

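The 16 genes taken as neighbours of the clusters were read the same way. In WT mESC 9 were bivalent and 7 active, and in KO mESC 9 were bivalent, 6 active and 1, Evx2, repressive. The bivalent share of all coding genes was 18.3% for WT mESC and 4.29% for KO. Each H3K27me3 call of a neighbour in KO mESC came from the domain over the adjoining cluster, so these are not separate observations. Those of Skap2, Evx1, Mtx2, Evx2 and Lnp rested on the a and d domains. Their mean counts, 1.48 and 1.61, were below that of the weakest WT domain, 3.04. Skap1 beside the b cluster, Smug1 beside the c cluster and Mtx2 beside the d cluster, were bivalent in all lists, while Snx10, Cbx5, Atp5g2 and Hnrnpa3 were active in all of them. Hoxb1, at the end of the b cluster that faces Skap1, did not carry H3K4me3 in KO mESC while Skap1 did.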
